A study of Mus musculus with 24 samples.

Results

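The 10 genes described here were the IL-6 family ligands Lif, Osm, Il6 and Il11, the receptor chains Lifr, Osmr, Il6ra and Il6st, the transcription factor Stat3 and its feedback inhibitor Socs3. They were found by gene symbol among the 36109 genes of the lung count table and the 36595 genes of the retina count table, and all 10 were listed in both. The series held RNA sequencing of 24 samples, 12 lungs and 12 retinas, with 3 mice in each of 4 groups per tissue. WT-RA and KO-RA mice were kept in room air (21% oxygen), and WT-O2 and KO-O2 mice were exposed to hyperoxia. Lungs were exposed to 85% oxygen from postnatal day 1 to day 14 and collected on day 15, while for the retina 75% oxygen lasted from day 7 to day 12, followed by room air until collection on day 18. The retinal samples thus represent the ischemic phase after the oxygen exposure had ended, while the lungs were collected straight after it. GSDMD-KO mice carried a global CRISPR deletion of 38 bp in exon 5 of Gsdmd, the gene of the pore-forming protein gasdermin D, on a C57/B6 background, and WT mice were littermates from heterozygous crosses. No cell type was selected, so that whole tissue was measured in every group. The authors deposited expected counts per gene, and the levels below are CPM, counts scaled to a common library size, after TMM normalization in edgeR.

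IL-6 family cytokines signal through receptor complexes that contain gp130, the protein product of Il6st. Il6ra encodes the IL-6 receptor chain, Lifr and Osmr encode chains that pair with gp130 for leukemia inhibitory factor and oncostatin M, and interleukin 11 uses its own receptor chain encoded by Il11ra1. Engaged receptors activate JAK kinases that phosphorylate STAT3, and STAT3 induces among other genes Socs3, whose product binds the receptor complex and limits further signaling. In the retina, LIF is known as a factor made by Mueller glia under stress that acts on photoreceptors and glia, and in the lung IL-6, IL-11 and LIF are known as cytokines of injured epithelium, fibroblasts and macrophages. STAT3 is activated by phosphorylation, which mRNA counts do not measure.

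In the GRCm38 assembly Lif (ENSMUSG00000034394, chr11:4257557-4272514, plus strand) and Osm (ENSMUSG00000058755, chr11:4236420-4241026, plus strand) lie next to each other, with 16530 bases and 0 annotated genes wholly between them. Stat3 (ENSMUSG00000004040, chr11:100885098-100939540) and Socs3 (ENSMUSG00000053113, chr11:117966079-117970047) are on the minus strand of the same chromosome. Osmr (ENSMUSG00000022146, chr15:6813577-6874969, minus strand) neighbors Lifr (ENSMUSG00000054263, chr15:7090614-7197489, plus strand). The annotation of Stat3 overlaps that of Stat5a on the opposite strand, and Il6ra overlaps the antisense gene Gm42809. Whether the counting used strand is not given in the sources used here, so reads from these overlapping stretches cannot be assigned to either partner with certainty. The count tables hold no coordinates, and positions were taken from the annotation by gene identifier.

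The 250 bases before the RefSeq start site (GRCm38.p6) are shown for 4 genes that changed in the lung, Socs3 and Stat3 as the feedback inhibitor and the transcription factor, and Lif and Il6 as the ligands with the largest relative rise. Capitals mark matches to the STAT motif TTCNNNGAA, which reads the same on both strands, or to the AP-1 motif TGACTCA and its reverse complement TGAGTCA. The windows are chr11:117969367-117969616 for Socs3 and chr11:100939541-100939790 for Stat3, both printed from the minus strand, and chr11:4257318-4257567 for Lif and chr5:30012864-30013113 for Il6, both printed from the plus strand.
Socs3: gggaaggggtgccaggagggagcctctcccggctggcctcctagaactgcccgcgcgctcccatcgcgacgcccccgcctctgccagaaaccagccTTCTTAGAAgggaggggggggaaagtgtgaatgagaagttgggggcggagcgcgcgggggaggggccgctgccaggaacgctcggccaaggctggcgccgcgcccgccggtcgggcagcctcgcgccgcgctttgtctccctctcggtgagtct
Stat3: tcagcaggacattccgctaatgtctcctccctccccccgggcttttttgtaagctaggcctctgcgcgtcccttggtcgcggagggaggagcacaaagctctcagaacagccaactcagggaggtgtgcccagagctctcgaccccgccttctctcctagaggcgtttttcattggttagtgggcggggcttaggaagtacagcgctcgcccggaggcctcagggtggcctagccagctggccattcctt
Lif: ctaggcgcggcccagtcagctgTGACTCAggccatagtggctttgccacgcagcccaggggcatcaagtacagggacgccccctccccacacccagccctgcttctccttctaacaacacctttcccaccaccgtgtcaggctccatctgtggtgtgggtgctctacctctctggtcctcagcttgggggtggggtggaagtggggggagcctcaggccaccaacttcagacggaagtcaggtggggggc
Il6: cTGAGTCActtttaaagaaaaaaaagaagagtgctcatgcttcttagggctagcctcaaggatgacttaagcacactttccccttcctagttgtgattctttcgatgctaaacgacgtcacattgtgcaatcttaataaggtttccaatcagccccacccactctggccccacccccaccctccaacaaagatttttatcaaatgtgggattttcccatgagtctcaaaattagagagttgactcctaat
The window of Socs3 held a STAT match that began 154 bases before the start, and those of Lif and Il6 each held an AP-1 match, beginning 228 and 249 bases before it. The window of Stat3 held neither motif. The window of Socs3 lies wholly inside the gene as annotated above, where the gene begins further upstream, at 117970047. The last bases of the Lif window also lie inside its annotated gene. Counting also the 50 bases after each start, as the table gives them, 11 windows of 9 of the 10 genes were found (Osm had no entry), of which 1 held a STAT match and 3 an AP-1 match, the third in an alternative promoter of Il11. Among all 32851 windows of that length 8.30% held a STAT match and 5.20% an AP-1 match. A match describes these letters only.

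The tissue labels were checked against marker genes. Summed expression of 6 lung epithelial markers was 19256 to 34027 CPM in the lungs and 38.5 to 59.2 CPM in the retinas, and that of 6 rod photoreceptor markers was 51182 to 67992 CPM in the retinas and 3.0 to 4.4 CPM in the lungs. Gsdmd transcript was lower in KO than in WT lungs, with a log2 fold change of -1.33 (SE 0.11, adjusted p = 8.33e-05) in hyperoxia and -0.79 (SE 0.11, adjusted p = 0.0135) in room air. In the retina the corresponding values were -1.17 (SE 0.63, adjusted p = 0.482) and -1.58 (SE 0.65, adjusted p = 0.346), and Gsdmd counts of WT and KO retinas overlapped, WT spanning 0.419 to 5.70 CPM and KO 0.636 to 2.95 CPM. Library totals ran from 28763661 to 29604254 in the lung and from 24863257 to 29093035 in the retina. The retinas varied more between mice, with a common biological coefficient of variation of 0.337 against 0.127 in the lungs. Lens transcripts exceeded 1000 CPM in 3 retinas, 2 of WT-RA and 1 of KO-RA, and Y-linked transcripts were present in all 3 retinas of both room-air groups but in 1 of 3 retinas of each hyperoxia group. In the lung they were found in 0 of 3 WT-RA, 1 of 3 WT-O2 and 2 of 3 KO-RA mice, and in all 3 KO-O2 mice. The lung of KO-O2 mouse 1 held liver transcripts at 163.8 CPM, against 2.6 CPM or less in the other 11 lungs.

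Most of the ligands and the STAT3 branch were higher in hyperoxic than in room-air WT lungs. Of the 10 genes 6 rose (Lif, Il6, Il11, Osmr, Stat3 and Socs3), 2 fell (Lifr and Il6ra), and Osm and Il6st did not pass the test, where passing means an adjusted p under 0.1 in edgeR's quasi-likelihood test after adjustment by Benjamini-Hochberg over all genes tested. Of all 16819 genes tested 24.5% rose and 24.7% fell in this comparison. In GSDMD-KO lungs 7 of the 10 rose, Osm joining the others, and Lifr and Il6ra fell, beside 23.3% of all genes that rose and 23.4% that fell. A change of at least 2-fold was seen for 6 of the 10 genes in WT and 6 in KO, where 11.6% and 10.6% of all genes reached it. The median log2 fold change of the 10 genes was 0.94 in WT and 1.11 in KO, against -0.01 for all genes in each. When a lung was left out in turn, the median in KO was lowest, at 0.85, without the KO-O2 lung of mouse 1. It was highest, at 1.15, without that of mouse 2. In WT the median was 0.92 to 1.01 over these fits, so the 2 genotypes cannot be ordered by it.

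**Figure D1:**
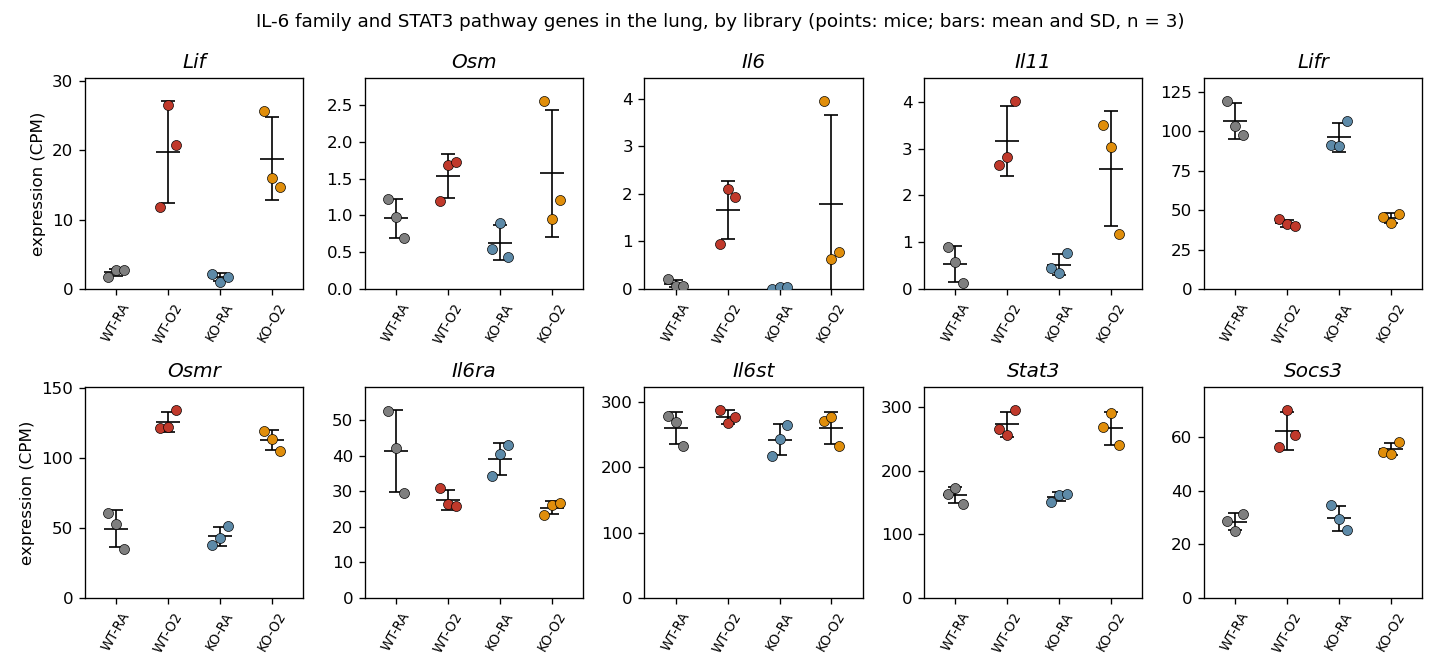
Expression (CPM, linear axes from 0) of the 10 genes in the 12 lungs, with a point for each mouse and a bar for the mean and SD of 3 mice per group. Lif, Il6, Il11, Osmr, Stat3 and Socs3 of both hyperoxia groups lie above both room-air groups, Lifr lies below them, and the high Il6 point of KO-O2 is the lung of mouse 1.

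Among the ligands, Lif was at 1.78, 2.69 and 2.72 CPM in the 3 WT-RA lungs and at 11.9, 26.5 and 20.8 CPM in the 3 WT-O2 lungs. In KO lungs it was at 2.19, 1.03 and 1.80 CPM in room air and at 25.7, 16.0 and 14.7 CPM in hyperoxia. Every hyperoxic lung of either genotype therefore lay above every room-air lung, with a log2 fold change of 3.04 (SE 0.36, adjusted p = 4.66e-05) in WT and 3.49 (SE 0.37, adjusted p = 2.59e-05) in KO. Il6 rested on few reads in room air, with 6, 2 and 2 counts in WT-RA and 0, 1 and 1 in KO-RA. In hyperoxia it had 28, 61 and 57 counts in WT-O2 and 113, 18 and 23 in KO-O2. The ratio of the summed counts was 14.4 in WT (95% interval 7.62 to 30.7) and 75.7 in KO (20.6 to 630.4), exact intervals that cover counting error only. Il6 passed the test in both genotypes (adjusted p = 0.00236 in WT and 0.000566 in KO), and the KO-O2 lung of mouse 1 alone reached 3.95 CPM where the other 2 KO-O2 lungs were at 0.637 and 0.769 CPM. The fitted log2 fold change of Il6 in KO was 6.05 (SE 1.04) with this lung, which held 113 of the 154 counts, and 4.71 (adjusted p = 0.000381) without it.

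Il11, a cytokine linked to fibroblast activation, was at 0.907, 0.572 and 0.138 CPM in WT-RA and at 2.66, 2.82 and 4.02 CPM in WT-O2, a log2 fold change of 2.55 (SE 0.51, adjusted p = 0.0015). It was at 0.444, 0.345 and 0.780 CPM in KO-RA and at 3.50, 3.04 and 1.17 CPM in KO-O2, a log2 fold change of 2.28 (SE 0.52, adjusted p = 0.00358). In both genotypes the room-air and hyperoxic lungs did not overlap. Osm, a ligand mainly of myeloid and T cells, was at 0.688 to 1.22 CPM in WT-RA and 1.19 to 1.72 CPM in WT-O2, overlapping ranges with a log2 fold change of 0.67 (SE 0.38, adjusted p = 0.174). In KO lungs it was at 0.547, 0.896 and 0.441 CPM in room air and 2.55, 0.956 and 1.20 CPM in hyperoxia, a log2 fold change of 1.32 (SE 0.40, adjusted p = 0.0166). Without the KO-O2 lung of mouse 1, the lung with liver transcripts and the highest Osm and Il6, the fold change of Osm was 0.78 and no longer passed (adjusted p = 0.132).

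The receptor chains moved in different directions. Osmr was at 60.5, 53.2 and 34.8 CPM in WT-RA and at 122, 122 and 135 CPM in WT-O2, and at 37.6, 43.0 and 51.6 CPM in KO-RA and 120, 114 and 105 CPM in KO-O2. Its hyperoxic lungs all lay above its room-air lungs, with a log2 fold change of 1.35 (SE 0.17, adjusted p = 4.03e-05) in WT and 1.36 (SE 0.17, adjusted p = 4.43e-05) in KO. Lifr did the opposite, at 119, 103 and 97.3 CPM in WT-RA and at 44.2, 41.1 and 40.0 CPM in WT-O2, and at 91.1, 90.4 and 107 CPM in KO-RA and 45.4, 41.8 and 47.7 CPM in KO-O2. The 2 genes encode alternative partners of gp130, and Lifr fell by 1.35 on the log2 scale in WT (SE 0.10, adjusted p = 8.2e-08) and by 1.09 in KO (SE 0.09, adjusted p = 7.39e-07). Il6ra fell by 0.58 in WT (SE 0.17, adjusted p = 0.0126), room air spanning 29.5 to 52.4 CPM and hyperoxia 25.7 to 30.8 CPM, ranges that overlapped, and by 0.62 in KO (SE 0.17, adjusted p = 0.00952), where the ranges of 34.1 to 42.8 CPM and 23.2 to 26.7 CPM did not overlap. Il6st, the shared chain, stayed between 217 and 288 CPM over all 12 lungs, and its log2 fold change of 0.09 in WT had a 95% interval of -0.12 to 0.30, and that of 0.11 in KO one of -0.10 to 0.32.

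Stat3 was at 164, 173 and 148 CPM in WT-RA and at 266, 256 and 295 CPM in WT-O2, and at 151, 162 and 163 CPM in KO-RA and 269, 291 and 240 CPM in KO-O2. The lungs of room air and hyperoxia did not overlap in either genotype, and the log2 fold change was 0.76 (SE 0.09, adjusted p = 1.66e-05) in WT and 0.75 (SE 0.09, adjusted p = 2.11e-05) in KO. Socs3 was at 28.9, 25.03 and 31.5 CPM in WT-RA and at 56.4, 70.2 and 60.9 CPM in WT-O2, and at 34.6, 29.4 and 25.3 CPM in KO-RA and 54.6, 53.9 and 58.3 CPM in KO-O2. This feedback inhibitor thus also separated the exposures completely, with a log2 fold change of 1.13 (SE 0.12, adjusted p = 3.95e-06) in WT and 0.90 (SE 0.12, adjusted p = 3.63e-05) in KO. In bulk tissue a change in the number of cells of a type and a change in RNA per cell cannot be told apart, and summed macrophage markers moved with these genes, at 292 to 335 CPM in WT-RA, 443 to 487 CPM in WT-O2, 242 to 252 CPM in KO-RA and 374 to 425 CPM in KO-O2. Of the 8 macrophage markers 6 rose in WT and 8 in KO. Beside these marker counts, 24.5% of all lung genes rose and 24.7% fell in WT, and 23.3% and 23.4% in KO. Of 7 neutrophil markers 0 rose in either genotype, at a summed 55.02 to 72.5 CPM in WT-RA, 52.3 to 59.8 CPM in WT-O2, 61.4 to 131 CPM in KO-RA and 52.6 to 56.9 CPM in KO-O2. Of 6 fibroblast and mural markers 4 rose and 2 fell in each genotype, at summed levels of 3221 to 4565 CPM in WT-RA, 4877 to 5460 CPM in WT-O2, 4061 to 4491 CPM in KO-RA and 4395 to 5575 CPM in KO-O2. T cell markers fell, 5 of 5 in WT and 4 of 5 in KO, from sums of at least 31.4 and 27.2 CPM in room air to at most 17.8 and 22.5 CPM in hyperoxia. Endothelial sums were 3894 to 4147 CPM in WT-RA and 3091 to 3424 CPM in WT-O2, and 3 of 6 endothelial and 4 of 6 epithelial markers fell in WT and 2 of 6 and 3 of 6 in KO. All 6 erythroid markers fell in WT and 0 in KO. The part of cell content in the changes of the pathway was not tested.

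Compared per kilobase of the longest annotated transcript, Il6st ranked first in WT-RA lungs with a mean level of 29.96 CPM per kb, followed by Stat3 at 26.7, Socs3 at 11.2, Lifr at 11.0 and Osmr at 9.01. In WT-O2 lungs Stat3 was first at 45.1 CPM per kb, ahead of Il6st at 31.9, Socs3 at 24.5 and Osmr at 23.0. The mean level of Lif, 0.595 CPM per kb in WT-RA, was 4.90 in WT-O2, next to 4.33 for Lifr, its own receptor chain. Lif and Lifr were also neighbors in KO-O2 lungs, at 4.67 and 4.66 CPM per kb. The spread of Lif between mice, with an SD of 7.39 CPM around a mean of 19.7 CPM in WT-O2, was too wide to order it against Lifr.

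GSDMD-KO and WT lungs did not differ detectably in any of the 10 genes. In hyperoxia 0 of 10 passed with edgeR and 0 had an unadjusted p under 0.05, where 0.0416% of all genes passed and 6.21% had such a p. In room air 0 of 10 passed and 0 had an unadjusted p under 0.05, where the shares of all genes were 0.488% and 10.5%, and for the interaction of genotype and hyperoxia 0 of 10 and 0 of 10, where they were 0.00595% and 6.72%. DESeq2 also passed 0 of the 10 in each of these 3 comparisons. For KO-O2 against WT-O2 the log2 fold change of Stat3 was -0.03 (95% interval -0.23 to 0.16), that of Socs3 -0.17 (-0.42 to 0.08), that of Lifr 0.11 (-0.10 to 0.31) and that of Il6st -0.09 (-0.30 to 0.12). Osmr was lower in each KO-O2 lung than in each WT-O2 lung, at -0.16 (-0.52 to 0.19). The ligands were measured less precisely, with -0.07 (-0.75 to 0.60) for Lif, 0.10 (-1.17 to 1.37) for Il6, -0.30 (-1.26 to 0.66) for Il11 and 0.03 (-0.75 to 0.82) for Osm. Without the KO-O2 lung of mouse 1 the values of Il6 and Osm turned, to -1.24 and -0.51, and did not pass. In room air the widest interval was that of Il6, -2.13 (-5.50 to 1.23), which rests on 10 counts in WT-RA and 2 in KO-RA, each KO-RA lung lying below each WT-RA lung.

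In the retina the pathway was expressed at lower levels and Stat3 was the member that passed. Osm and Il6 were too low to be tested, Osm with 16 counts over all 12 retinas and at most 9 in a library, and Il6 with 4 counts, of which 3 were in a KO-RA retina. Of the 8 genes tested 1 rose in WT retinas, where 3.11% of all 19173 genes tested rose and 2.05% fell, and 1 rose in KO retinas, where 4.38% rose and 3.44% fell. Stat3 reached a 2-fold change in WT but not in KO, where 2.04% and 2.19% of all genes did so. With the WT-O2 retina of mouse 2 left out, Stat3 was below 2-fold in WT as well. Its log2 fold change was then 0.80 in WT and 0.92 in KO. The median log2 fold change of the 8 genes was 1.41 in WT and 0.65 in KO, against 0.00 for all genes in each. Without the WT-O2 retina of mouse 2 the median in WT was 0.65. The lung and retina tables were not compared with each other by a test, since they were made separately.

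**Figure D2:**
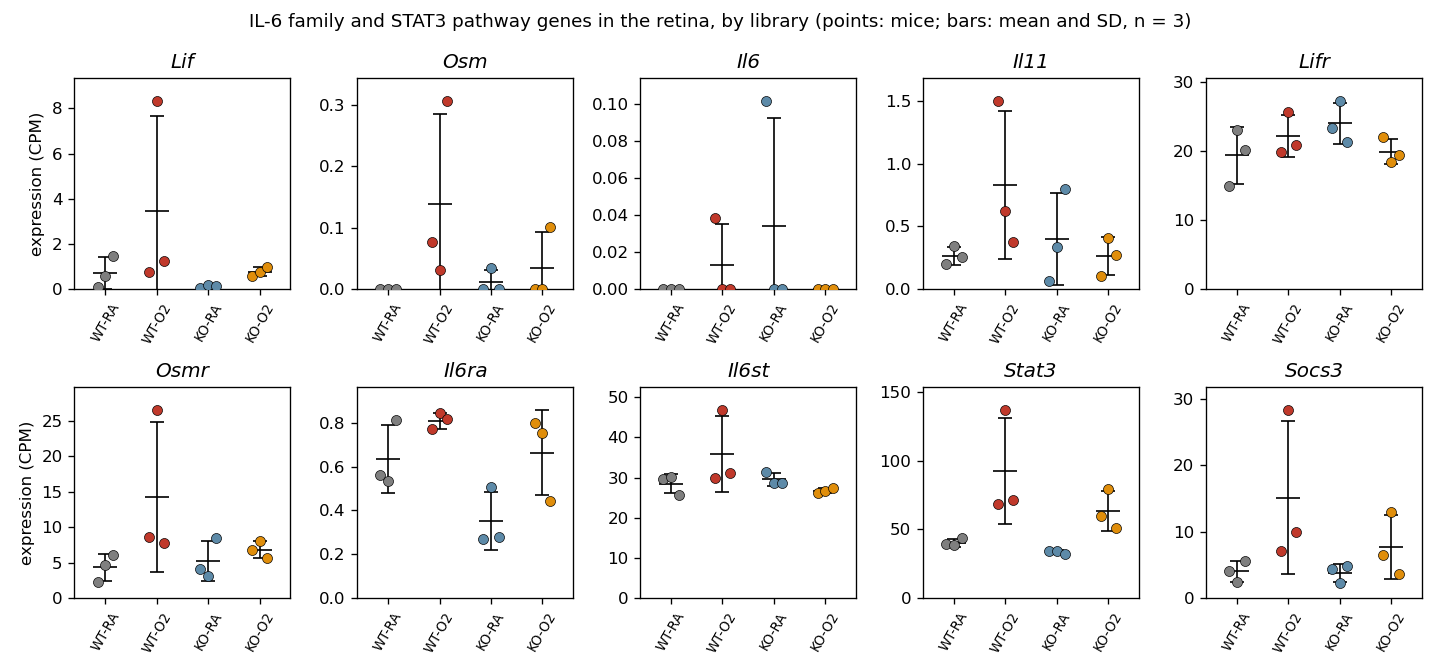
Expression (CPM, linear axes from 0) of the 10 genes in the 12 retinas, with a point for each mouse and a bar for the mean and SD of 3 mice per group. The WT-O2 retina of mouse 2 is the high point for Lif, Osmr, Il6st, Stat3 and Socs3, and Osm and Il6 lie at a few counts.

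Stat3 was at 39.0, 38.4 and 43.5 CPM in WT-RA and at 68.9, 137 and 71.6 CPM in WT-O2. It was at 34.1, 34.2 and 31.9 CPM in KO-RA and at 60.1, 79.4 and 50.8 CPM in KO-O2. All hyperoxic retinas lay above all room-air retinas, and the log2 fold change was 1.20 (SE 0.24, adjusted p = 0.028) in WT and 0.92 (SE 0.24, adjusted p = 0.0595) in KO. These calls depended on which retinas were included. In WT the call was lost without WT-RA mouse 1 (adjusted p = 0.109) or mouse 2 (0.114), and in KO without KO-RA mouse 1 (0.151), mouse 2 (0.127) or mouse 3 (0.152) or KO-O2 mouse 2 (0.233). With the 3 lens-containing retinas left out the fold change of Stat3 was 1.24 (adjusted p = 0.183) in WT and 0.90 (adjusted p = 0.222) in KO, and with Y-linked expression as a covariate it was 1.20 (adjusted p = 0.131) and 0.92 (adjusted p = 0.141). With the lens level as a covariate it was 1.07 (adjusted p = 0.220) and 0.88 (adjusted p = 0.114). Stat3 kept a positive fold change, from 0.80 to 1.37 in WT and from 0.73 to 1.06 in KO, in all alternatives run.

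Socs3 was at 4.04, 2.40 and 5.61 CPM in WT-RA and at 7.12, 28.3 and 9.94 CPM in WT-O2. The WT groups did not overlap, but the log2 fold change of 1.92 (SE 0.61) did not pass (adjusted p = 0.138). In KO retinas Socs3 was at 4.33, 2.19 and 4.81 CPM in room air and 6.42, 12.9 and 3.596 CPM in hyperoxia, overlapping values with a log2 fold change of 1.02 (SE 0.60, adjusted p = 0.380). Osmr was at 2.28, 4.65 and 6.04 CPM in WT-RA and at 8.58, 26.5 and 7.69 CPM in WT-O2, again without overlap and with a log2 fold change of 1.72 (SE 0.54, adjusted p = 0.132). In KO retinas it was at 4.06, 3.13 and 8.46 CPM in room air and 6.84, 8.03 and 5.597 CPM in hyperoxia, and its log2 fold change was 0.39 (SE 0.53, adjusted p = 0.742). DESeq2 gave an adjusted p of 0.0202 for Socs3 and 0.0234 for Osmr in WT retinas, so for these genes the call depended on the tool.

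Lif was at 0.080, 0.572 and 1.46 CPM in WT-RA and at 0.770, 8.33 and 1.23 CPM in WT-O2, a log2 fold change of 2.29 (SE 0.99, adjusted p = 0.263). In KO retinas it was at 0.0338, 0.168 and 0.119 CPM in room air and at 0.590, 0.752 and 0.984 CPM in hyperoxia. The KO groups did not overlap, and the log2 fold change of 2.81 (SE 1.11) had an adjusted p of 0.182 with edgeR and 0.0817 with DESeq2. Il11 was at 0.200 to 0.343 CPM in WT-RA and 0.374 to 1.501 CPM in WT-O2, with a log2 fold change of 1.62 (SE 0.89, adjusted p = 0.376), and at 0.0676 to 0.795 CPM over the 6 KO retinas. The receptor chains Lifr, at 14.9 to 27.2 CPM, and Il6ra, at 0.270 to 0.842 CPM over all 12 retinas, did not pass in either genotype. Il6st, at 29.8, 30.1 and 25.7 CPM in WT-RA and 29.8, 46.8 and 31.1 CPM in WT-O2, had a log2 fold change of 0.33 (SE 0.15, adjusted p = 0.289), and at 31.5, 28.6 and 28.8 CPM in KO-RA and 26.1, 26.8 and 27.4 CPM in KO-O2 one of -0.15 (SE 0.15, adjusted p = 0.646).

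**Figure D3:**
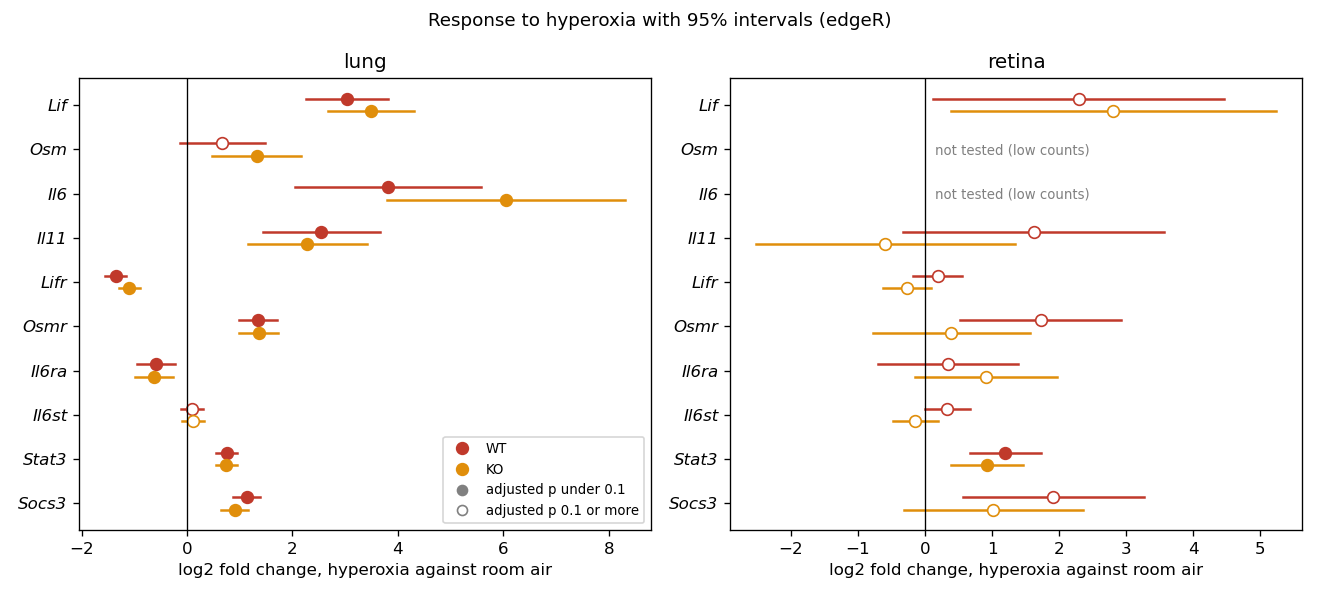
Log2 fold changes of hyperoxia against room air with 95% intervals from edgeR, in WT and GSDMD-KO lungs and retinas, 3 mice per group. Filled points passed at an adjusted p under 0.1. In the lung the intervals of Lif, Il6, Il11, Osmr, Lifr, Il6ra, Stat3 and Socs3 lie clear of 0 in both genotypes, and in the retina Stat3 alone is filled.

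The WT-O2 retina of mouse 2 stood apart within its group in the same genes. It held 8.33 CPM of Lif where the other 2 WT-O2 retinas held 0.770 and 1.23 CPM, 26.5 CPM of Osmr against 8.58 and 7.69 CPM, and 28.3 CPM of Socs3 against 7.12 and 9.94 CPM. It also had the highest Stat3 (137 CPM) and Il6st (46.8 CPM) of all 12 retinas. Il11 and Il6ra did not stand out in it, at 0.624 and 0.842 CPM. Without it, the log2 fold changes of hyperoxia in WT were 0.80 for Stat3 (adjusted p = 0.0476), 1.09 for Socs3 (adjusted p = 0.407), 0.91 for Osmr (adjusted p = 0.410) and 0.51 for Lif (adjusted p = 0.880). Stat3 still passed in WT and in KO (adjusted p = 0.0134) when this retina was left out.

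Between genotypes after hyperoxia, all 8 genes tested had a lower fitted level in KO-O2 than in WT-O2 retinas, and 0 of 8 passed with edgeR, where 1.27% of all genes did. An unadjusted p under 0.05 was found for 2 of the 8, beside 12.6% of all genes, and DESeq2 also passed 0 of the 8. The log2 fold change was -0.55 for Stat3 (95% interval -1.07 to -0.02, adjusted p = 0.373), -0.42 for Il6st (-0.76 to -0.09, adjusted p = 0.264), -0.99 for Socs3 (-2.29 to 0.32), -1.06 for Osmr (-2.23 to 0.10) and -1.65 for Il11 (-3.59 to 0.29). Lif was at -2.15 (SE 0.98, adjusted p = 0.397). Without the WT-O2 retina of mouse 2 the values were -0.15 for Stat3, -0.18 for Il6st, -0.16 for Socs3, -0.25 for Osmr and -0.36 for Lif, while Il11 stayed at -1.82. Il6st was the one gene of the 8 for which every KO-O2 retina lay below every WT-O2 retina. The share of all retinal genes with this ordering was not counted, so no weight can be given to it. Markers of cell types were also compared between these groups. Of 5 erythroid markers tested 4 fell, each by at least 2-fold, with summed levels of 1027 to 1710 CPM in WT-O2 and 385 to 446 CPM in KO-O2, and endothelial sums were 226.2 to 261.6 and 193.1 to 222.1 CPM. The part of these cell types in the lower fitted levels was not tested.

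**Figure D4:**
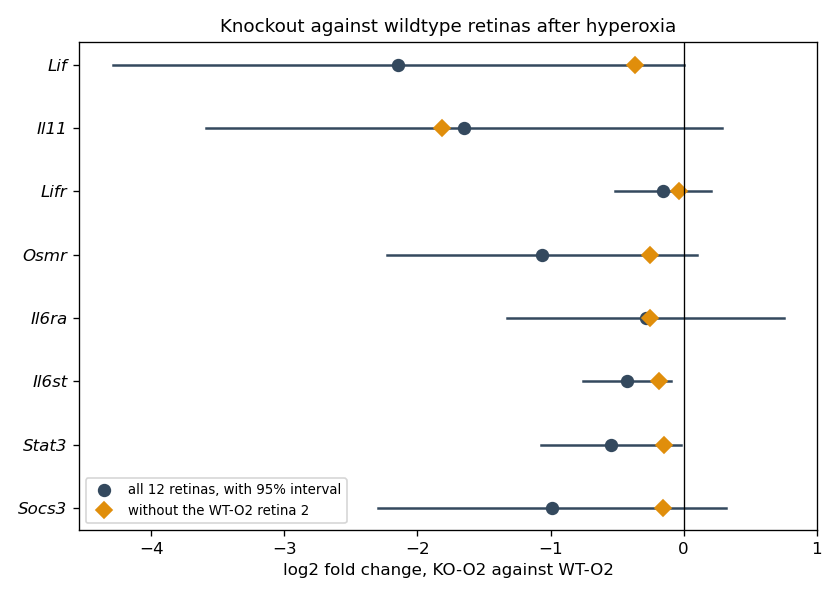
Log2 fold changes of KO-O2 against WT-O2 retinas for the 8 genes tested, with 95% intervals over all 12 retinas (circles) and the values without the WT-O2 retina of mouse 2 (diamonds). Lif moves from -2.15 to -0.36, Osmr from -1.06 to -0.25, Socs3 from -0.99 to -0.16 and Stat3 from -0.55 to -0.15, and Il11 stays near its value.

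In room air 0 of 8 genes passed between KO and WT retinas and 1 had an unadjusted p under 0.05, where 0.00522% and 12.7% of all genes did so. That gene was Lif, at 0.080, 0.572 and 1.46 CPM in WT-RA and 0.0338, 0.168 and 0.119 CPM in KO-RA, with a log2 fold change of -2.66 (95% interval -5.10 to -0.23, adjusted p = 0.353). The 2 WT-RA retinas with the higher Lif were mice 2 and 3, which also held the lens transcripts, and without the 3 lens-containing retinas the direction turned, at 0.31 (adjusted p = 1.00). Stat3 was lower in each KO-RA than in each WT-RA retina, at -0.27 (-0.80 to 0.26). For the interaction 0 of 8 passed and 1, Il6st, had an unadjusted p under 0.05 (-0.48, adjusted p = 0.461), where 0.00522% of all genes passed and 10.6% had such a p.

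Per kilobase, Stat3 ranked first in each of the 4 retinal groups, with means of 6.67 and 15.3 CPM per kb in room air and hyperoxia of WT and of 5.53 and 10.5 CPM per kb in KO. Il6st came next at 3.29 in WT-RA, 3.41 in KO-RA and 3.08 in KO-O2, and in WT-O2 it was preceded by Socs3 at 5.93. With an SD of 11.5 CPM around the Socs3 mean of 15.1 CPM that order is within the spread between mice. The retinal counts may also have been scaled for transcript length already, in which case dividing by length again would favor genes with short transcripts. Lif was at 0.855 CPM per kb in WT-O2 and between 0.0266 and 0.193 in the other groups, but the WT-O2 mean of 3.44 ± 4.24 CPM rested on mouse 2. Among the cell type markers that moved with Stat3 in the retina were those of macrophages and microglia, at a summed 42.1 to 57.8 CPM in WT-RA and 98.2 to 152.6 CPM in WT-O2 and at 42.8 to 52.4 CPM in KO-RA and 96.7 to 135.1 CPM in KO-O2. Of these 8 markers 5 rose in WT and 5 in KO. Beside these marker counts, 3.11% of all retinal genes rose and 2.05% fell in WT, and 4.38% and 3.44% in KO. Endothelial markers, at 99.1 to 117.4 CPM in WT-RA and 226.2 to 261.6 CPM in WT-O2 and at 114.8 to 140.9 CPM in KO-RA and 193.1 to 222.1 CPM in KO-O2, rose in 6 of 6 genes in WT and 5 of 6 in KO. The 7 markers of Mueller glia, the glial cells known to make LIF, summed to 2424 to 3080 CPM in WT-RA, 2413 to 2494 CPM in WT-O2, 2723 to 2958 CPM in KO-RA and 2563 to 2795 CPM in KO-O2. Of these markers 1 rose and 3 fell in WT, and 1 rose and 2 fell in KO. T cell sums, all below 10 CPM, were 2.87 to 3.10 CPM in WT-RA and 5.15 to 7.82 CPM in WT-O2, and 2.40 to 5.01 CPM in KO-RA and 5.72 to 8.19 CPM in KO-O2. Neutrophil sums were 1.64 to 3.88 CPM in WT-RA and 4.40 to 5.39 CPM in WT-O2. In KO-RA and KO-O2 they overlapped, at 3.09 to 4.04 and 3.79 to 5.10 CPM. Pigment epithelium sums were 250 to 1759 CPM in KO-RA and 77.9 to 209 CPM in KO-O2. In WT-RA and WT-O2 these overlapped, at 141.5 to 411.4 and 81.3 to 208.7 CPM. The part of these cell types in the level of Stat3 was not tested.

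Other parts of the pathway were followed through 4 further lists. Of 9 other IL-6 family ligands and receptors tested in the lung, 2 rose and 4 fell in WT and 2 rose and 5 fell in KO, with a median log2 fold change of -0.30 and -0.48. The shares of all lung genes were 24.5% risen and 24.7% fallen in WT and 23.3% and 23.4% in KO, so that the number risen was near that of all genes. Clcf1, a ligand of the family, fell by 0.95 on the log2 scale in WT (adjusted p = 1.8e-05) and by 1.16 in KO (adjusted p = 2.9e-06). Il11ra1, the receptor chain of Il11, fell by 0.68 in WT (adjusted p = 4.3e-05) and by 0.66 in KO (adjusted p = 6e-05), so that the receptor chains Lifr, Il6ra and Il11ra1 were lower in hyperoxic lungs in which their ligands Lif, Il6 and Il11 were higher. Cntfr, the receptor chain of ciliary neurotrophic factor, fell by 0.90 in WT and by 1.42 in KO. In the retina 0 of 10 genes of this list passed in either genotype, with medians of 0.17 and 0.16.

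Of 10 JAK kinases and other STATs, 0 rose and 3 fell in WT lungs and 1 rose and 4 fell in KO lungs. Of all lung genes 24.5% rose and 24.7% fell in WT, and 23.3% and 23.4% in KO. Stat5b fell by 0.54 in WT and by 0.47 in KO, and Tyk2 by 0.24 and 0.27, all changes of less than 2-fold. In the retina 2 of the 10 rose in each genotype and 0 fell, beside 3.11% of all genes that rose in WT and 4.38% in KO. Jak3, a kinase of blood and immune cells, rose from 1.96 ± 0.348 to 7.20 ± 1.25 CPM in WT retinas (SD, n = 3, log2 fold change 1.88, SE 0.25, adjusted p = 0.0032) and from 1.53 ± 0.170 to 3.75 ± 1.07 CPM in KO retinas (1.29, SE 0.25, adjusted p = 0.019), and Stat6 rose by 0.64 and 0.46 on the log2 scale. Of 9 inhibitors of the pathway 2 rose and 3 fell in WT lungs and 3 rose and 2 fell in KO lungs, close to the shares of all genes given above, led in WT by the phosphatase Ptpn6, which fell by 0.55 (adjusted p = 0.00051). In the retina 0 of the 9 inhibitors passed in WT, and Pias3 rose in KO (0.38, adjusted p = 0.095). Socs1, the inhibitor closest to Socs3 in function, was at -0.13 in WT lungs (SE 0.35, adjusted p = 0.80).

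STAT3 response genes, a list of 30 genes known to be induced by STAT3 in some cell types, rose widely in both tissues. The list was chosen with earlier results of these data known, so its shares beside those of all genes are a description and not a test. Of all genes tested 24.5% rose in WT lungs and 23.3% in KO lungs, and 3.11% and 4.38% in the retinas. The shares that fell were 24.7% and 23.4% in the lungs and 2.05% and 3.44% in the retinas. In the lung 21 of 29 tested rose and 1 fell in WT and 20 rose and 2 fell in KO, with a median log2 fold change of 0.95 and 1.11. The smallest p in WT belonged to Ccnd1, a cell cycle gene, from 130 ± 12.0 to 574 ± 36.0 CPM, and to the protease inhibitor Timp1, from 3.36 ± 1.06 to 52.4 ± 10.7 CPM. They were followed by the acute phase gene Saa3, from 3.27 ± 0.853 to 38.4 ± 7.13 CPM, and the adhesion molecule Icam1, from 311 ± 13.7 to 622 ± 22.3 CPM. A2m was the gene that fell in both genotypes, by 1.91 in WT and 1.75 in KO. In the retina 13 of 30 rose and 0 fell in WT and 13 rose and 1, Chil1, fell in KO, with a median of 1.25 and 1.11. These were led in WT by Vegfa, the angiogenic factor of the ischemic retina, from 245 ± 11.2 to 585 ± 33.8 CPM, and by Fgf2, from 8.01 ± 3.38 to 43.2 ± 8.81 CPM, and included the transcription factor gene Cebpd at 6.65 ± 2.11 and 31.1 ± 12.8 CPM. Most genes of the list also respond to other factors, among them NF-kB and HIF.

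**Figure D5:**
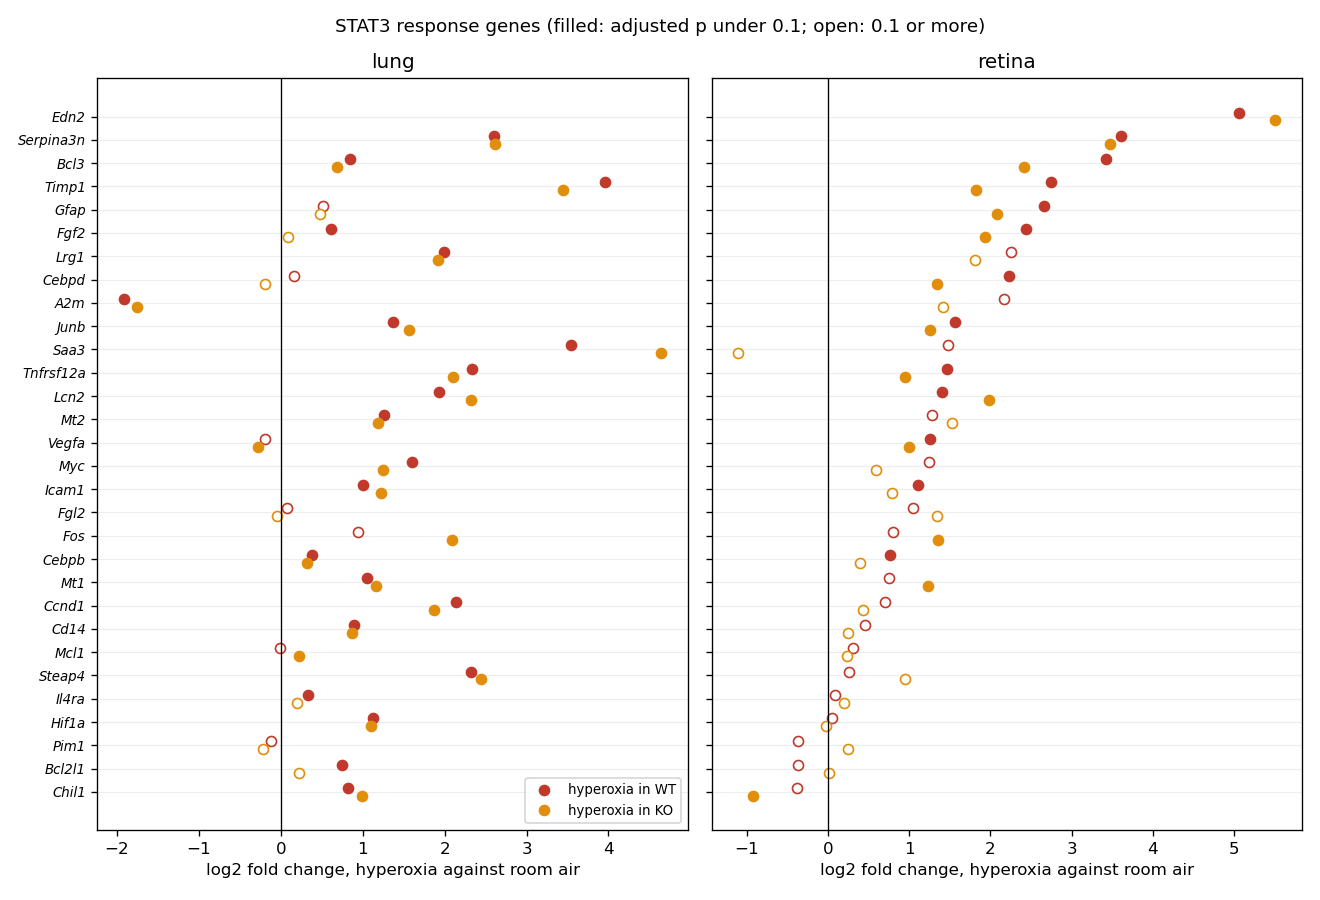
Log2 fold changes of hyperoxia against room air for the STAT3 response genes in lungs and retinas of WT and GSDMD-KO mice, ordered by the WT retina. Filled points passed at an adjusted p under 0.1. Edn2 is shown for the retina only, since it was too low to be tested in the lung.

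The counts of STAT3 response genes that rose were less stable in the retina than in the lung. Over the fits that left out a library in turn the number of STAT3 response genes that rose was 20 to 22 in WT lungs and 18 to 20 in KO lungs, but 7 to 15 in WT retinas and 3 to 12 in KO retinas. In WT it was 7 without WT-RA mouse 1, WT-RA mouse 2 or WT-O2 mouse 2, and in KO it was 3 without KO-O2 mouse 2, 5 without KO-RA mouse 1 or mouse 2 and 6 without KO-RA mouse 3. Without the 3 lens-containing retinas 6 of the STAT3 response genes rose in WT and 8 in KO, while the medians were 1.35 and 1.13. Between KO-O2 and WT-O2, 0 of the 29 lung genes and 0 of the 30 retinal genes passed, and 5 and 7 had an unadjusted p under 0.05, as did 6.21% and 12.6% of all genes. Their median log2 fold change between KO-O2 and WT-O2 was -0.15 in the lung and -0.41 in the retina, against 0.00 and 0.01 for all genes. In room air Saa3 was lower in KO than in WT lungs (1.43 ± 0.405 and 3.27 ± 0.853 CPM, log2 fold change -1.20, adjusted p = 0.0856), and its adjusted p was 0.358 with Y-linked expression as a covariate 0.0563 to 0.340 when a lung was left out in turn and 0.000222 with DESeq2.

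Windows were at hand for 25 of the 30 STAT3 response genes, 29 windows in all. The STAT motif was found in 4 of these, those of Gfap, Steap4, Fgl2 and Icam1, a share of 13.8% beside 8.30% of all windows. A chromosome left out of the list's windows was kept among all windows. Steap4 rose in WT lungs by 2.32 and Icam1 by 1.00 on the log2 scale, and Fgl2 and Gfap did not pass there, at 0.07 and 0.51. In WT retinas Gfap, the intermediate filament of reactive glia, rose by 2.66 (SE 0.52, adjusted p = 0.032), from 15.8 ± 11.6 to 100 ± 17.1 CPM.

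The genes whose levels followed Stat3 and Socs3 most closely over the 12 libraries of a tissue were listed by Pearson's r of log2(CPM + 1), as a description across libraries that share the split between room air and hyperoxia. In the lung Stat3 was followed most closely by Runx1 (r = 0.991), P2ry2 (0.988) and Sorbs2 (0.988), and Socs3 by Gss (0.994), Uap1l1 (0.987) and Cdkn2b (0.985). In the retina the genes nearest to Stat3 were Cebpd (0.970), Ccl2 (0.966) and Robo4 (0.959), and those nearest to Socs3 were Synpo (0.932), Cebpd (0.912) and Stat3 itself (0.911). Without the WT-O2 retina of mouse 2 the value for Socs3 and Stat3 was 0.821 and that for Stat3 and Cebpd 0.958.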

How the data were processed

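RNA from lungs and retinas of WT and GSDMD-KO mice in room air or hyperoxia was analyzed, 3 mice per group and 24 libraries in all. Groups were taken from the sample labels and mice were numbered within a group in accession order. The study's methods state that the authors assigned reads to transcripts with kallisto and summarized them per gene with tximport, and what the authors deposited were expected counts, in 1 table for each tissue. The submitters' processing notes name mm10 while the supplementary methods name a later build, and the tximport setting is not given in the sources used here. Values above 0 were whole within 0.01 in 55.8% of cases for lung and 2.20% for retina, so the retinal counts may have been scaled, and the tissues were not tested against each other. Gene symbols were assigned by identifier for 35816 and 35968 genes from a GRCm38 annotation.

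Counts were rounded and fitted in R 4.3.3 with edgeR 4.0.16 (TMM, filterByExpr by group, robust quasi-likelihood F-tests, two-sided, a term per group over the 12 libraries of a tissue), with Benjamini-Hochberg adjustment over 16819 lung and 19173 retina genes. A gene passed at an adjusted p under 0.1. The SE was derived from the F statistic and the fold change. The scripts were checked on simulated counts. Levels of genes are TMM CPM and marker sums are CPM of the library total. The median depth was 29226529 counts in the lung and 27827879 in the retina, where 3 counts correspond to 0.101 to 0.121 CPM. Replicates differed by more than counting noise, with a chi-square per gene of 14.3 or more for each pair. P-values set a difference between groups against the spread between mice within groups, estimated over the 12 libraries of a tissue.

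All 10 members are reported, and from each wider list at most 4 genes with the smallest p, except Socs1, A2m, Chil1 and the genes with a motif match, which were named after their values were seen. Some genes of the wider lists are counted but not reported by name here. The members and lists were chosen with earlier results of these data known. Promoter windows came from RefSeq (GRCm38.p6, 250 bases before to 50 after a start). Alternatives were RLE size factors, DESeq2 1.42.0, no filter on low counts, the 6 libraries of a contrast, a fold of at least 2, Y-linked expression (above 20 CPM) as a covariate, and leaving out each library, and, added after seeing the data, the lens level as a covariate and leaving out the lens (above 1000 CPM) or liver (above 100 CPM) libraries.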

Additional observations from a re-analysis of the deposited data

Results flagged for a closer look

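Each of the following genes of the wider lists had hyperoxia fold changes of opposite sign in the 2 tissues. All 3 hyperoxic libraries lay on one side of all 3 room-air libraries in the lung and on the other side in the retina. The share of all genes with such an ordering was not counted. The difference between tissues was not tested, since lungs and retinas differ in oxygen level, age and recovery time and were quantified separately. The log2 fold changes of hyperoxia are given for the lung first.

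In WT mice A2m was at -1.91 and 2.17, Il27ra at -0.57 and 1.73 and Ptpn6 at -0.55 and 0.93, all lower in the lung and higher in the retina. Bcl2l1 was at 0.74 and -0.37 and Chil1 at 0.83 and -0.38 in WT, the other way round. In KO mice Clcf1 was at -1.16 and 0.56, Jak3 at -0.41 and 1.29 and Vegfa at -0.28 and 1.00, lower in the lung and higher in the retina. Chil1 was at 0.99 and -0.93 and Saa3 at 4.64 and -1.10 in KO.

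Both tissues' values passed in edgeR's quasi-likelihood test for Chil1, Jak3 and Vegfa in KO, with retinal adjusted p-values of 0.0447, 0.0188 and 0.00381. For the 7 other pairs the retinal value did not pass. None of the 10 genes of the report met this description in either genotype.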

How the results depend on the processing

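Over 90 fold changes of the 10 genes and 1710 values under alternatives, 1619 kept their direction and their side of the threshold, 20 lost the call, 4 gained it and 67 turned direction, all of them below the threshold before and after. The number of the 10 genes passing in hyperoxic lungs was 8 in WT and 8 to 9 in KO when a library was left out. In the retina the number passing was 0 to 1 in either genotype when a library was left out. It was 3 in WT and 2 in KO with DESeq2, 2 in KO with the 6 libraries of the contrast, and 0 in KO with a fold of at least 2. It was 0 in both genotypes with Y-linked expression or the lens level as a covariate and without the 3 libraries with lens transcripts. The cause was not tested.

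The number of all genes passing was more sensitive. With DESeq2 it was 87 in KO-O2 against WT-O2 lungs (7 with edgeR), 418 in room air (82) and 110 for the interaction (1), and 1915 in WT (990) and 2566 in KO (1500) retinas, 1001 between KO-O2 and WT-O2 retinas (244), 758 in room air (1) and 569 for the interaction (1). With a fold of at least 2 it was 1952 and 1783 for hyperoxia in WT and KO lungs (8268 and 7857), 4 and 23 between genotypes in lungs, and 391, 420 and 56 for WT, KO and KO-O2 against WT-O2 retinas. With Y-linked expression as a covariate it was 2, 0 and 0 between genotypes in hyperoxia, in room air and for the interaction in lungs, and 374, 836 and 116 in the retinal comparisons named last. With only the 6 libraries it was 27 in room-air lungs between genotypes, 633, 835 and 110 in those retinal comparisons and 0 in room-air retinas. Without the low-count filter it was 2 for the lung interaction and 128 between KO-O2 and WT-O2 retinas. Without the library with liver transcripts it was 1, 48 and 0 between genotypes in lungs. With the lens level as a covariate it was 162 in WT retinas, 99 between KO-O2 and WT-O2 and 0 for room air and the interaction, and without the lens libraries 767 in KO retinas, 69 between KO-O2 and WT-O2 and 0 for the other 2. Leaving out a library in turn gave 7194 to 8335 and 6541 to 8431 genes for hyperoxia in WT and KO lungs, 1 to 35, 2 to 604 and 0 to 45 between genotypes, 361 to 1278 and 374 to 1733 for hyperoxia in WT and KO retinas, and 12 to 351, 0 to 1 and 0 to 340 between genotypes. With 3 mice per group, the 95% intervals given in the report set the size of change that could be seen. No paired analysis was possible because the labels give no replicate numbers shared between groups.

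The values that turned, all of comparisons between genotypes or interactions except that of Il11 in KO retinas, were as follows. With Y-linked expression as a covariate, KO-O2 against WT-O2 lungs were at 0.021 for Lif, -0.14 for Osm and -0.17 for Il6, and Il11 in hyperoxic KO retinas at 0.21. Without the library with liver transcripts, KO-O2 against WT-O2 lungs were at -0.51 for Osm and -1.24 for Il6, and the lung interaction at -0.043 for Osmr, 0.014 for Il6ra and -0.020 for Il6st. The retinal interaction of Lif was at -0.73 with the lens level as a covariate and -2.46 without the lens libraries, where Lif in room air was at 0.31 and Il11 in hyperoxic KO retinas at 0.37. Leaving out a library in turn, KO-O2 against WT-O2 lungs ranged from -0.51 to 0.29 for Osm, -1.24 to 0.51 for Il6, -0.37 to 0.20 for Lif, -0.098 to 0.030 for Stat3 and -0.60 to 0.038 for Il11. In room-air lungs the range was -0.27 to 0.12 for Il6ra, -0.49 to 0.55 for Il11, -0.085 to 0.028 for Stat3 and -0.061 to 0.17 for Socs3. For the lung interaction it was -0.17 to 0.20 for Osmr, -0.060 to 0.085 for Il6st, -0.25 to 0.15 for Il6ra, -0.85 to 0.18 for Il11 and -0.069 to 0.054 for Stat3. In room-air retinas it was -0.27 to 0.58 for Osmr, -0.014 to 0.095 for Il6st, -0.36 to 0.23 for Socs3 and -0.39 to 1.07 for Il11, for the retinal interaction -0.57 to 2.30 for Lif and -0.47 to 0.12 for Stat3, and for Il11 in hyperoxic KO retinas -1.09 to 0.37.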
